A study of Mus musculus with 12 samples.

Results

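Genes for the cartilage of the outer ear were read in mouse ear pinnae after 4 days of treatment with injected cytokines. The set held 10 genes outside the collagen family: Acan, Hapln1, Matn1, Matn3, Comp, Chad, Cytl1, Ucma, Cnmd and Sox9. They were matched by gene symbol to 10 of the 50684 genes of the count table, and 9 of them, all except Matn1, were among the 19408 genes that passed the filter on low counts. The genes were picked by name after differences between the groups had been seen in these same libraries. Their levels and fold changes are therefore a description, and no p-value is given for them. The animals were female C57BL/6 mice of 8 weeks, as the methods of the study give it. The 4 groups received PBS as the control, 1 µg of IL-17A, 1 µg of IL-36γ, or 1 µg of each cytokine together (IL-17A + IL-36γ), intradermally into the pinna in a volume of 5 µL. Each group of the study held 5 mice, 3 of which were sequenced, giving 12 libraries. No genotype or transgene is named in the labels, and the mice of all groups shared the strain and the injection itself.

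The pinna is a sheet of elastic cartilage between layers of skin. Its chondrocytes secrete a matrix in which aggrecan, carrying chains of chondroitin sulfate, binds hyaluronan through link protein and holds water within a mesh of type II, IX and XI collagen and elastic fibres. SOX9 is the transcription factor that switches on much of this program. Smaller matrix proteins, among them matrilins, COMP and chondroadherin, join the network together and to the cells.

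The libraries held between 25293468 and 34759293 counts, so that 3 counts corresponded to between 0.083 and 0.121 CPM, the count scaled to a common library size. No library was a copy of another of its own group, since the 12 pairs of libraries within groups differed by a chi-square of 7.03 to 63.3 per gene. Pairs between groups were not compared in this way. Levels are given in CPM after TMM scaling, as mean ± SD of 3 mice, or per kilobase of exons (RPKM) where genes are set against each other. The labelled tissue is skin, and the markers of cartilage Col2a1, Acan, Hapln1, Cnmd and Sox9 were all read in every library, whereas Matn1 was at 0 to 2 counts. The RNA came from whole tissue of a part of each ear, as the methods of the study give it, and CPM is a share of all counts. Fewer chondrocytes, less RNA per chondrocyte and a smaller share of cartilage in the RNA therefore cannot be told apart. The labels name no batch. A p-value here measures only the spread between the mice sequenced.

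In PBS ears, Cytl1 was read most strongly per length of exons of the 10 genes, at 507 ± 71.3 RPKM. Chad at 31 ± 4.11, Cnmd at 20.3 ± 1.32, Acan at 19.6 ± 4.69 and Comp at 18.9 ± 3.53 RPKM came next, and the last 3 of these lay within their spread. Ucma reached 8.45 ± 0.699, Sox9 5.96 ± 0.168, Hapln1 3.58 ± 0.65 and Matn3 1.03 ± 0.0981 RPKM. After IL-17A + IL-36γ, Cytl1 was still the highest at 220 RPKM and Chad the next at 14.3 RPKM, whereas Cnmd had moved behind Comp and Acan, at 7.16 against 12.3 and 9.23 RPKM.

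Acan and Hapln1 encode the partners of the hydrated aggregate, aggrecan and the link protein that fixes it on hyaluronan. Acan (ENSMUSG00000030607) lies at chr7:79053483-79115099 of GRCm38 and Hapln1 (ENSMUSG00000021613) at chr13:89539796-89611652. Acan was at 107, 174 and 157 CPM in the PBS libraries, 195, 159 and 94.5 CPM after IL-17A, 108, 83.8 and 118 CPM after IL-36γ, and 59.3, 83.5 and 64.1 CPM after IL-17A + IL-36γ. Only the combination stood apart from PBS for Acan, with all 3 of its libraries below every other library of the 12, and its mean was 47.2% of that of PBS. Hapln1 was at 16.8, 23.9 and 22.8 CPM in PBS, 31.5, 26.6 and 14.2 CPM after IL-17A, 13.7, 10.8 and 15.5 CPM after IL-36γ, and 6.59, 8.27 and 8.59 CPM after IL-17A + IL-36γ. Here the libraries of IL-36γ also lay below all of PBS, at 63% of its mean, and those of the combination lay lower again, at 37%. For both genes the IL-17A group spread widely, since its replicate 3 lay below all PBS libraries and its replicate 1 above them.

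Matn1, Matn3 and Comp encode adaptors that bridge collagen fibrils and proteoglycans. Matn1 (ENSMUSG00000040533, chr4:130944385-130955475) was not measurable at this depth. It had 0, 0 and 1 counts in PBS, 1 count in each IL-17A library, none in IL-36γ, and 2, 1 and 0 counts after the combination, so no fold is given. Matn3 (ENSMUSG00000020583, chr12:8947929-8972028), the other matrilin, was at 2.77, 3.2 and 3.33 CPM in PBS, 3.38, 4.19 and 2.09 CPM after IL-17A, 2.06, 1.92 and 1.89 CPM after IL-36γ, and 1.44, 2.3 and 1.3 CPM after IL-17A + IL-36γ. Its libraries of IL-36γ and of the combination lay below all of PBS but overlapped each other. Comp (ENSMUSG00000031849, chr8:70373558-70382066), the oligomeric matrix protein of cartilage and tendon, was at 44.3, 59.3 and 64.4 CPM in PBS, 49.1, 59.1 and 57.9 CPM after IL-17A, 51.2, 44.5 and 51.1 CPM after IL-36γ, and 31, 37.7 and 40.8 CPM after the combination. For Comp the libraries of each cytokine alone overlapped PBS, and only the combination was separate, at 65.2% of the PBS mean.

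Chad, Cytl1, Ucma and Cnmd encode smaller secreted proteins of chondrocytes. Chad (ENSMUSG00000039084, chr11:94565047-94569127) encodes chondroadherin, a leucine-rich repeat protein that binds integrins and type II collagen. It was at 44.1, 55.4 and 56.6 CPM in PBS, 72, 79.7 and 63.7 CPM after IL-17A, 55.8, 30.9 and 58.3 CPM after IL-36γ, and 22.9, 22.8 and 26.4 CPM after IL-17A + IL-36γ. All IL-17A libraries were above PBS and all combination libraries below it, whereas those of IL-36γ overlapped PBS.

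The promoter of Chad is shown because this gene had the largest difference between the effects of IL-17A with and without IL-36γ, described below, and because it alone among the members searched carried the letters TATAAA there. The stretch is the 250 bases before the start of the gene on the + strand, chr11:94564797-94565046, from RefSeq on GRCm38.p6, with the match in capitals.
Chad: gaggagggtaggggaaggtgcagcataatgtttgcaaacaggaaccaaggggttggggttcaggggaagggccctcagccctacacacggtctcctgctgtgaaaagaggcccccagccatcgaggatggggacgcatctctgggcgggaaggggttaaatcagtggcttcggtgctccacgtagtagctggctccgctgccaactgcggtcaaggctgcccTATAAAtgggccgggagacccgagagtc

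The match covers bases 28 to 23 before the start. Promoters of the same 250 bases were found in RefSeq for 8 of the 10 genes, all except Comp and Sox9, and were searched on both strands for TATAAA and for the SOX-type words ACAATG and AACAAAG. The first of these stood in 1 of these 8 promoters and in 12.4% of 32851 promoters of all genes. ACAATG stood in 0 of 8 against 10.7% and AACAAAG in 0 of 8 against 5.03%, which says only that these letters are not in this window.

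Cytl1 (ENSMUSG00000062329, chr5:37735519-37739820), a small secreted protein of chondrocytes, followed the pattern of Chad. It was at 450, 568 and 590 CPM in PBS, 664, 704 and 757 CPM after IL-17A, 487, 319 and 524 CPM after IL-36γ, and 183, 199 and 316 CPM after IL-17A + IL-36γ. Again all IL-17A libraries were above PBS, all combination libraries were below it, and IL-36γ overlapped PBS, with replicate 2 of IL-36γ the lowest of its group for both genes.

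Ucma (ENSMUSG00000026668, chr2:4976122-4985748) encodes a small Gla protein of the cartilage matrix. It was at 8.06, 6.82 and 7.52 CPM in PBS, 15, 8.74 and 6.56 CPM after IL-17A, 5.96, 4.51 and 4.3 CPM after IL-36γ, and 3.04, 3.07 and 2.74 CPM after the combination. The IL-17A group overlapped PBS and its mean rested on replicate 1, whereas both groups with IL-36γ lay below PBS and did not overlap each other. Cnmd (ENSMUSG00000022025, chr14:79637690-79662170, - strand) encodes chondromodulin, a protein of avascular cartilage that holds off blood vessels. It was at 40.1, 35.3 and 37.1 CPM in PBS, 41.9, 35.8 and 19.5 CPM after IL-17A, 18.9, 17.7 and 18.6 CPM after IL-36γ, and 12.7, 14.4 and 12.4 CPM after IL-17A + IL-36γ. Cnmd was the member with the lowest share of the PBS level after IL-36γ alone, 49.1%, and after the combination, 35.2%.

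Sox9 (ENSMUSG00000000567, chr11:112782224-112787760), the regulator of the lineage, had the smallest standard errors. It was at 24.1, 24.4 and 25.4 CPM in PBS, 40.2, 34.2 and 30.9 CPM after IL-17A, 19.6, 19 and 21.1 CPM after IL-36γ, and 16.7, 18.7 and 15.7 CPM after IL-17A + IL-36γ. No groups of Sox9 overlapped, and they ran in the order IL-17A, PBS, IL-36γ and combination. In skin Sox9 is also a gene of hair follicle cells. Of 7 hair follicle markers tested, Krt15 alone was called after the combination, from 1240 ± 122 to 548 ± 78.7 CPM, while Lgr5 was at 88%, Krt79 at 93.2%, Krt75 at 115% and Foxn1 at 118% of the PBS mean. Msx2 and Lhx2 were lower, at 0.7 and 0.822 times the PBS level in the edgeR fit, and all Msx2 libraries lay below PBS. The part of hair follicle cells in the level of Sox9 was not tested. The exons of none of the 10 genes overlapped those of another gene.

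**Figure D1:**
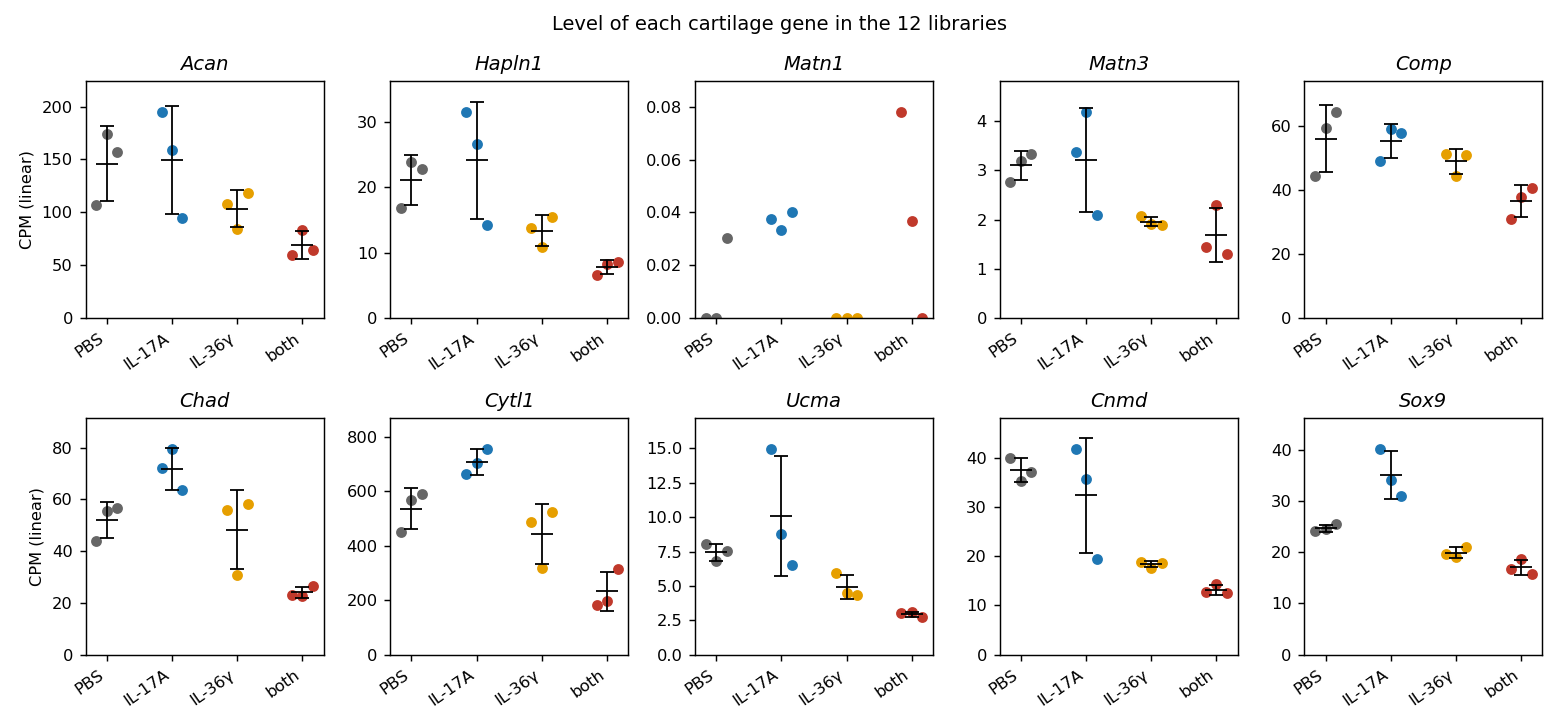
Level of each of the 10 genes in CPM on a linear axis from 0, 1 panel per gene, with 1 point per library, 3 for each treatment, the combination being marked "both". Black bars give the mean ± SD and are left out for Matn1, which had 0 to 2 counts; the points of the combination lie below those of PBS in each of the other 9 panels.

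The order of the group means was alike across the 9 measured genes. IL-17A + IL-36γ had the lowest mean in 9 of 9, IL-36γ the next lowest in 9 of 9, and IL-17A the highest in 7 of 9, with PBS highest for Comp and Cnmd. Neighbours in this order did not always differ beyond their spread. The libraries of the highest and second group were apart for 3 genes (Chad, Cytl1 and Sox9), those of the second and the third group for 5 (Matn3, Hapln1, Cnmd, Ucma and Sox9), and those of the third and the lowest for 8, all except Matn3. How many of all genes share this order is not given here. The members were chosen with group differences known, so nothing is read from these counts. The summed CPM of the members was 737, 951 and 964 in PBS, 1110, 1110 and 1050 after IL-17A, 762, 532 and 812 after IL-36γ, and 337, 390 and 488 after the combination, and Cytl1 made up most of each sum.

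IL-17A alone left the cartilage genes near or above the level of PBS. Log2 fold changes are from the fit of edgeR to all 12 libraries, with their standard error (SE). Sox9 differed by 0.51 (SE 0.10, 95% interval 0.30 to 0.73), Chad by 0.47 (SE 0.19, interval 0.04 to 0.89) and Cytl1 by 0.40 (SE 0.21, interval -0.06 to 0.87). These were the 3 members whose IL-17A libraries all lay above PBS, which held for 19.6% of all genes tested. Ucma at 0.44 (SE 0.24), Hapln1 at 0.19 (SE 0.25), Matn3 at 0.06 (SE 0.25), Acan at 0.03 (SE 0.25), Comp at -0.02 (SE 0.14) and Cnmd at -0.21 (SE 0.20) overlapped PBS. The value of Ucma was 0.005 without replicate 1 of IL-17A, and Acan ran from -0.24 without that replicate to 0.28 without replicate 3. The median of the members was 0.19 against 0.04 over all genes. Calls required an adjusted p below 0.05 together with a log2 fold change beyond 1 in either direction. By this rule edgeR called 0 members in either direction, beside 1.07% of all genes raised and 1.03% lowered, while 2 members had an unadjusted p below 0.05 and DESeq2 raised 0. The count by unadjusted p has no share of all genes beside it, and nothing is read from it. With the fold not required, Sox9 was the 1 member raised, beside 7.44% of all genes.

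IL-36γ alone gave lower means of all 9 genes. Cnmd differed most, by -1.03 (SE 0.20), followed by Hapln1 at -0.67 (SE 0.25), Matn3 at -0.66 (SE 0.25) and Ucma at -0.60 (SE 0.25). For these 4 genes and for Sox9, at -0.31 (SE 0.10), all IL-36γ libraries lay below PBS, which held for 19.2% of all genes. Acan at -0.50 (SE 0.25), Cytl1 at -0.27 (SE 0.21), Comp at -0.19 (SE 0.14) and Chad at -0.11 (SE 0.19) overlapped PBS, and Chad was at 0.14 without replicate 2 of IL-36γ. The median was -0.50 against -0.02 over all genes. Cnmd was the 1 member called lowered, beside 1.98% of all genes, and it sat at the edge of the rule. It was not called without replicate 1 of PBS, where its value was -0.97, nor without replicate 2 of IL-36γ. With the fold not required, Cnmd and Sox9 were the 2 members lowered, beside 11.1% of all genes.

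IL-17A + IL-36γ gave the largest differences from PBS, and the libraries did not overlap PBS for any of the 9 genes, where 25.6% of all genes lay as fully below PBS. The log2 fold change was -1.51 (SE 0.21) for Cnmd, -1.43 (SE 0.26) for Hapln1, -1.34 (SE 0.26) for Ucma, -1.20 (SE 0.22) for Cytl1, -1.11 (SE 0.20) for Chad and -1.08 (SE 0.25) for Acan. These 6 genes, which span the aggregate and the secreted proteins, were the members called lowered, beside 6.06% of all genes. Matn3 at -0.88 (SE 0.26), Comp at -0.62 (SE 0.14) and Sox9 at -0.53 (SE 0.10) did not reach the fold required, and all 9 were lowered when it was not required, beside 20.9% of all genes. The median was -1.11 against -0.03 over all genes. The members had been chosen with the contrasts of these libraries known, so nothing is read from this count or the others. Leaving out a library moved it between 5 and 7.

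**Figure D2:**
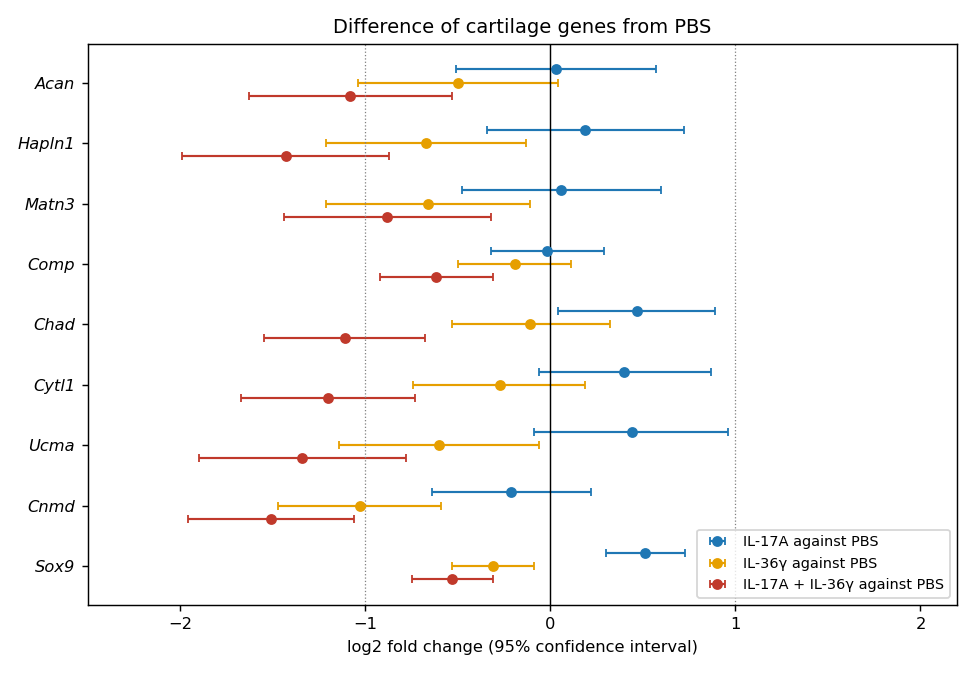
Log2 fold change of the 9 measured genes against PBS after IL-17A (blue), IL-36γ (orange) and IL-17A + IL-36γ (red), from the edgeR fit of 12 libraries, with 95% confidence intervals; dotted lines mark the fold required for a call. The red points run from -1.51 for Cnmd to -0.53 for Sox9, and the 3 contrasts share the PBS libraries.

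The combination was also set against each cytokine alone. These contrasts share the combination libraries with each other and with the contrast against PBS, so they are not independent of it. Against IL-17A, Ucma differed by -1.77 (SE 0.26), Hapln1 by -1.62 (SE 0.26), Cytl1 by -1.61 (SE 0.22), Chad by -1.58 (SE 0.20), Cnmd by -1.30 (SE 0.21), Acan by -1.12 (SE 0.25) and Sox9 by -1.04 (SE 0.10). Those 7 were called lowered, beside 4.49% of all genes, and 5 were called without replicate 1 of IL-17A. Matn3 at -0.94 (SE 0.26) and Comp at -0.60 (SE 0.14) were not called, and all 9 were lowered with the fold not required, beside 17.7% of all genes. The libraries were fully lower for 8 genes, all except Matn3, beside 25.4% of all genes, and the median was -1.30 against 0.

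Against IL-36γ alone, Chad differed most, by -1.01 (SE 0.20), and then Cytl1 by -0.93 (SE 0.21), Hapln1 by -0.77 (SE 0.26), Ucma by -0.74 (SE 0.26) and Acan by -0.58 (SE 0.25). Chad and Cytl1 were thus the members with the smallest fold changes among the secreted proteins after IL-36γ alone and the largest when IL-17A was added to it. Cnmd was at -0.48 (SE 0.21), Comp at -0.42 (SE 0.14), Matn3 at -0.22 (SE 0.27) and Sox9 at -0.22 (SE 0.10). The test of edgeR called 0 members lowered, beside 0.0103% of all genes (2 genes), while 8 members had an unadjusted p below 0.05 and DESeq2 also called 0. No share of all genes stands beside the count by unadjusted p, so nothing is read from it. With the fold not required, 0 members were lowered in edgeR, beside 0.0206% of all genes. For 8 members, all except Matn3, the combination libraries lay below all IL-36γ libraries, beside 11.3% of all genes. Without replicate 2 of IL-36γ, 2 members were called. The median was -0.58 against 0.

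For 7 of 9 genes the mean was higher with IL-17A than with PBS but lower with the combination than with IL-36γ alone, and for Comp and Cnmd it was lower in both cases. The share of all genes with this pattern is not given here, and nothing is read from the count. The interaction subtracts the log2 effect of IL-17A given without IL-36γ from its effect given with IL-36γ. It was -1.47 (SE 0.28, interval -2.08 to -0.87) for Chad, -1.33 (SE 0.30) for Cytl1, -1.17 (SE 0.36) for Ucma, -0.96 (SE 0.36) for Hapln1 and -0.73 (SE 0.14, interval -1.04 to -0.43) for Sox9. Acan at -0.61 (SE 0.35), Comp at -0.41 (SE 0.20), Matn3 at -0.28 (SE 0.36) and Cnmd at -0.27 (SE 0.29) had intervals that held 0. Chad and Sox9 had an adjusted p below 0.05, beside 0.423% of all genes with a negative interaction called, and the median was -0.73 against -0.07. This count of 2 was not kept in any of the 12 fits that left out a library. It was 0 when any of PBS replicates 2 and 3, IL-17A replicates 1, 2 and 3, IL-36γ replicates 1 and 3, or combination replicates 1 and 2 was left out, 1 without combination replicate 3, and 3 without PBS replicate 1 or IL-36γ replicate 2. The sizes of Chad and Sox9 held in the same fits, from -1.72 to -1.20 for Chad and from -0.82 to -0.55 for Sox9 over 19 alternatives.

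The collagens of cartilage, a list of 8 genes for fibrils and the proteins around them, were lower in the same groups. This list and those that follow were also chosen with results of these libraries known, so their p-values are not independent evidence of a direction. After IL-17A + IL-36γ, 7 of 8 fell against PBS in the test of edgeR, beside 6.06% of all genes lowered, and none rose, with a median log2 fold change of -1.53 against -0.03 over all genes. Col9a1, a chain of the collagen IX that coats type II fibrils, fell from 49 ± 4.05 to 13.7 ± 2.02 CPM, a log2 fold change of -1.84 (SE 0.18, adjusted p = 2.84e-05). Its partner chains Col9a3 and Col9a2 fell by 1.77 (SE 0.20, adjusted p = 6.62e-05) and 1.54 (SE 0.26, adjusted p = 0.000655) on the log2 scale, and Col11a2 by 1.68 (SE 0.22, adjusted p = 0.000128). Col2a1, the main fibril of cartilage, was the exception, at 8.72 ± 1.22 CPM in PBS, 11 ± 4.93 with IL-17A, 5.94 ± 0.599 with IL-36γ and 4.89 ± 0.715 with the combination (log2 fold change -0.83, edgeR adjusted p = 0.0309), short of the fold required. After IL-36γ alone 2 of 8 fell, Col9a1 by 1.37 (SE 0.18, adjusted p = 0.000319) and Col27a1 by 1.27 (SE 0.20, adjusted p = 0.000961), with a median of -0.85, and 4 fell without PBS replicate 1 or IL-36γ replicate 1. After IL-17A alone 0 of 8 were called in edgeR or DESeq2, with 2 at an unadjusted p below 0.05 and a median of -0.15. Against IL-17A alone the combination lowered 6 of 8, among them Col10a1, the collagen of hypertrophic cartilage, by 2.04 (SE 0.28, adjusted p = 0.000479). Against IL-36γ alone 0 of 8 were called in edgeR, with 5 at an unadjusted p below 0.05 and a median of -0.59.

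A wider list of 26 chondrocyte genes, of which 24 were tested (Ihh and Nkx3-2 were not), was less uniform. After IL-17A + IL-36γ, 10 fell, beside 6.06% of all genes, 2 rose, beside 7.35%, and the median was -0.80. Gdf5, a growth factor of joints and perichondrium, fell from 15.6 ± 0.883 to 3.85 ± 0.404 CPM, by 2.01 on the log2 scale (SE 0.24, adjusted p = 7.15e-05 in edgeR). Clec3a, a lectin of the cartilage matrix, fell from 4.85 ± 1.79 to 1.07 ± 0.353 CPM (log2 fold change -2.16, SE 0.42, edgeR adjusted p = 0.00165). Ibsp, a bone and cartilage sialoprotein, was called too, but its combination libraries reached only 0.0366 to 0.167 CPM, near the level of 3 counts, against 0.332 to 1.36 CPM in PBS. The 2 that rose were Chil1 and Prg4. Chil1, a chitinase-like protein that inflamed chondrocytes and also myeloid cells secrete, stood at 45.2 ± 13.3 CPM in PBS, 132 ± 6.15 with IL-17A, 611 ± 104 with IL-36γ and 954 ± 127 with the combination. In edgeR it rose by 1.55 (adjusted p = 0.00576), by 3.76 (adjusted p = 3.94e-06) and by 4.40 (adjusted p = 1.32e-06) on the log2 scale. Prg4, the lubricin of joint surfaces, rose by 1.40 with IL-17A (adjusted p = 0.0292), by 1.17 with IL-36γ (adjusted p = 0.0234) and by 1.04 with the combination (adjusted p = 0.0264). None of the 3 calls of Prg4 was steady. The first ended without PBS replicate 2, PBS replicate 3 or IL-17A replicate 1 (adjusted p up to 0.145), the second without PBS replicate 1, IL-36γ replicate 1 or IL-36γ replicate 3 (adjusted p up to 0.0714), and the one for the combination without PBS replicate 1, combination replicate 1 or combination replicate 3, each of which left Chil1 as the 1 gene raised.

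After IL-36γ alone the same list had 1 fall, Gdf5 by 1.03 (SE 0.22, adjusted p = 0.00592), beside 1.98% of all genes, and a median of -0.36. It also had 2 rises, for which the share of all genes is not given here, so nothing is read from them. That call of Gdf5 ended without IL-36γ replicate 2, where the value was -0.79, and without PBS replicate 3. After IL-17A alone 2 rose and 0 fell in edgeR, beside 1.07% and 1.03% of all genes, and DESeq2 gave the same counts. Unadjusted p was below 0.05 for 5, and the median was 0.01. Against IL-17A alone the combination lowered 9 and raised 1 (Chil1), with a median of -0.65. Against IL-36γ alone 0 were called in edgeR and 1 in DESeq2, with 13 at an unadjusted p below 0.05 and a median of -0.29.

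Enzymes that cut aggrecan, link protein and collagen, with their inhibitors, were a list of 14 genes. The gene with the largest rise was Timp1, an inhibitor of metalloproteinases, at 8.49 ± 3.4 CPM in PBS, 30.2 ± 14.5 with IL-17A, 68.9 ± 18.8 with IL-36γ and 93.9 ± 9.36 with the combination. In edgeR it rose by 1.83 (adjusted p = 0.0165), by 3.02 (adjusted p = 0.000167) and by 3.46 (adjusted p = 3.55e-05), and the first call ended without PBS replicate 3 (adjusted p = 0.0911) and without IL-17A replicate 1, where the value was 1.33. Mmp9, a gelatinase that neutrophils carry, rose by 1.40 after the combination (SE 0.32, adjusted p = 0.00416). Timp1 was the 1 enzyme-list gene raised after each cytokine alone, beside 1.07% of all genes raised after IL-17A. The share raised after IL-36γ is not given here, so nothing is read from the count for IL-36γ. Timp1 and Mmp9 were the 2 raised after the combination, beside 7.35% of all genes. In edgeR 0 of the 14 were called lowered against PBS after IL-17A, IL-36γ or the combination, beside 1.03%, 1.98% and 6.06% of all genes. The medians of the list were 0.38, 0.02 and 0.13 in that order. Unadjusted p-values below 0.05 were found for 8, 5 and 7 of the 14, with no share of all genes beside them. With the fold not required, 2 of the 14 were raised with IL-17A, 2 with IL-36γ and 3 with the combination. Of all 19408 genes tested, 1443, 3366 and 4608 were raised by the same rule. Adamts15, an enzyme that cuts aggrecan, was raised in each case, and its libraries all lay above PBS. Its log2 fold changes were 0.58 (edgeR adjusted p = 0.00745), 0.78 (adjusted p = 7.94e-05) and 0.78 (adjusted p = 3.51e-05) in that order. By this rule 1 fell after IL-36γ, beside 11.1% of all genes, and 3 fell after the combination, beside 20.9%. Those 3 were Timp3, Timp2 and Htra1, so the inhibitors did not all move with Timp1. Timp3 went from 698 ± 85.2 CPM in PBS to 401 ± 48.2 CPM with the combination (log2 fold change -0.80, edgeR adjusted p = 0.000319). Timp2 differed by -0.44 (edgeR adjusted p = 0.00218). Against IL-17A alone Timp3 fell by 1.01 (SE 0.12, adjusted p = 0.000271), at the edge of the rule.

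Elastic fibres run through the cartilage of the pinna and through the dermis, and 3 of 13 of their genes fell after IL-17A + IL-36γ, beside 6.06% of all genes, with a median of -0.22. Mfap4 fell by 1.28 (SE 0.24, adjusted p = 0.00137), Ltbp4 by 1.09 (SE 0.12, adjusted p = 4.43e-05) and Eln, elastin itself, by 1.06 (SE 0.20, adjusted p = 0.00144), from 141 ± 17.5 to 67.9 ± 10.3 CPM. The call of Eln ended without PBS replicate 2, at -0.98, and without combination replicate 1, at -0.95. Against IL-17A alone 4 of 13 fell, and 2 without IL-17A replicate 1. After each cytokine alone 0 of 13 were called in edgeR or DESeq2, with 6 at an unadjusted p below 0.05 in each case. With the fold not required, 2 rose after IL-17A, and 3 fell and 2 rose after IL-36γ.

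**Figure D3:**
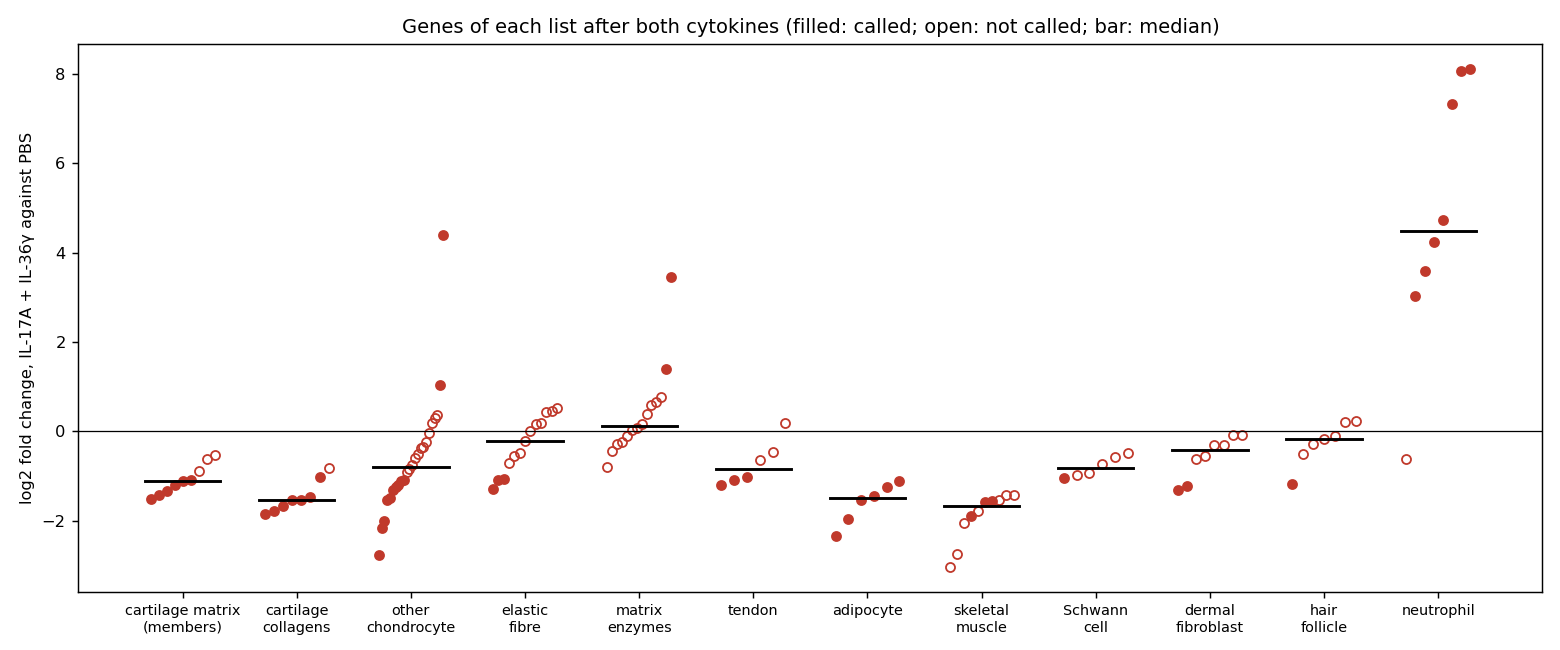
Log2 fold change of every tested gene of 12 lists after IL-17A + IL-36γ against PBS, in edgeR. Filled points were called by adjusted p and fold, open points were not, and bars mark the median, which is -1.11 for the cartilage matrix genes and -1.53 for the cartilage collagens. Ly6g, a neutrophil marker at 0 in PBS, is drawn at its fitted value.

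Markers of other tissues of the ear moved beside the cartilage genes. Neutrophil markers rose after IL-17A + IL-36γ for 7 of 8 genes, beside 7.35% of all genes raised, with Ly6g at 0 counts in PBS. Their summed level went from 13.4 to 89.6 CPM in PBS to 7600 to 10000 CPM. S100a8 at 3360 CPM and S100a9 at 4970 CPM, which keratinocytes can also make, carried nearly all of that sum, while Cxcr2 went from 5.14 ± 1.16 to 42.3 ± 15.6 CPM and Ltf, the marker not called, was at 65.8% of the PBS mean. Adipocyte markers fell for 6 of 6 (median -1.49), beside 6.06% of all genes lowered, and their sum went from 168 to 236 CPM in PBS to 54.4 to 110 CPM. Tendon markers fell for 3 of 6 (median -0.83), Schwann cell markers for 1 of 6 (median -0.83), dermal fibroblast markers for 2 of 8 (median -0.42) and hair follicle markers for 1 of 7 tested (median -0.18). Genes of adipocytes and some of those of tendon thus fell beside those of cartilage, while 1 or 2 genes were called in each of the other 3 lists. The part of these tissues in the levels of the members was not tested.

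Skeletal muscle genes differed widely between mice of a group. The 10 genes summed to 484 to 3780 CPM in PBS, 2350 to 3350 after IL-17A, 1330 to 2440 after IL-36γ and 287 to 1460 after the combination. Replicate 1 of PBS at 484 CPM and replicates 1 and 2 of the combination at 475 and 287 CPM stood apart as low. Of these 10 genes 3 fell after the combination against PBS (median -1.68) and 7 against IL-17A. With these 3 libraries left out, a choice made after seeing the data, 6 members were called lowered after the combination against PBS, 8 against IL-17A and 1 after IL-36γ. The combination is then 1 library, assumed to vary like those of the other groups. Within PBS, replicate 1 also had the lowest sum of the members, 737 CPM.

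**Figure D4:**
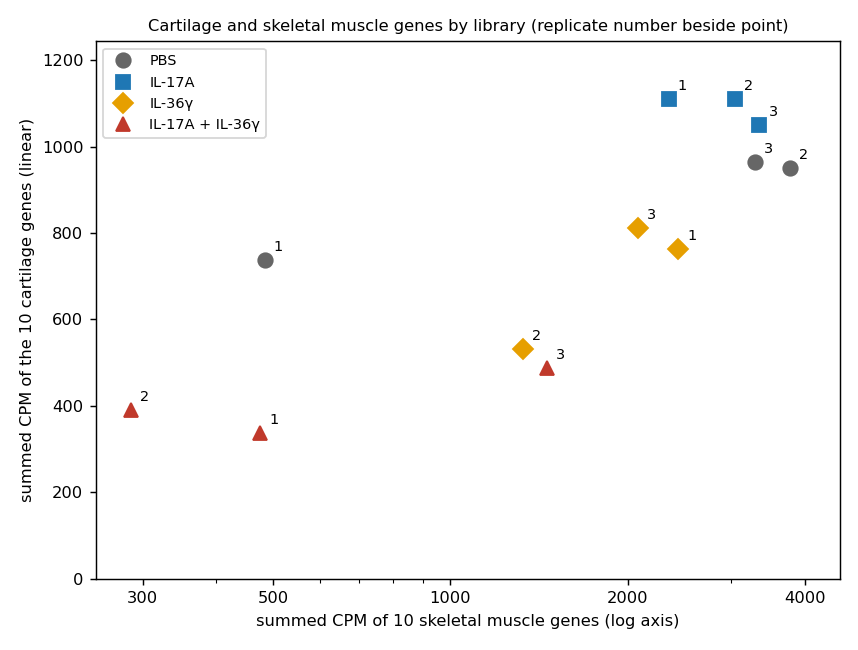
Summed CPM of the 10 cartilage genes (linear axis from 0) against the summed CPM of 10 skeletal muscle genes (log axis), 1 point per library with its replicate number, groups by colour and shape. PBS replicate 1 sits at 484 CPM of muscle genes and 737 CPM of cartilage genes, above all 3 combination libraries, which reach at most 488 CPM of cartilage genes.

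The 9 genes also varied together between mice of a group, although the points of each pair share library, scaling and source. Over 12 libraries and 36 pairs of genes, Pearson's r of log2 CPM had a median of 0.84 (0.64 to 0.97) and Spearman's rho 0.81, values that carry the group differences. With each group's mean removed, the median r was 0.56 (-0.39 to 0.94) with 29 of 36 pairs above 0, and the median rho was 0.38. Acan and Hapln1, the partners of the aggregate, had the highest r, 0.94. Cnmd and Ucma reached 0.82 and Acan and Sox9 0.81.

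Cytl1 was most like Chad, with r of 0.77, and Comp, with 0.75. Chad was also at 0.63 with Hapln1, 0.58 with Acan and 0.57 with Comp, whereas Comp was at -0.39 with Ucma and -0.27 with Cnmd. Against the mean of the other members, r was 0.95 for Hapln1, 0.92 for Acan, 0.71 for Sox9, 0.67 for Cnmd, 0.61 for Chad, 0.60 for Matn3, 0.47 for Ucma, 0.26 for Comp and 0.21 for Cytl1. Much of this lay in replicate 3 of IL-17A, whose members were on average 0.36 below their group mean in log2 CPM. Without it the median r over the pairs was 0.31.

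**Figure D5:**
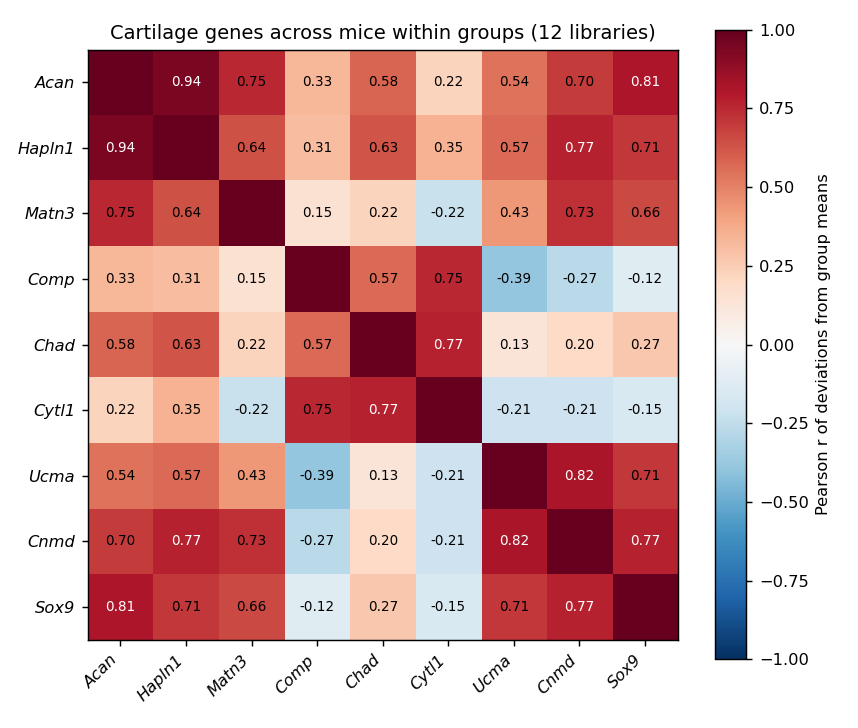
Pearson's r between pairs of the 9 measured genes over 12 libraries, after the mean of each group was removed from log2 CPM; red marks positive and blue negative values. Acan and Hapln1 have the highest value, 0.94, and Comp and Ucma the lowest, -0.39.

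Outside the set, the 5 genes whose deviations from the group means were most like the mean of the members over the 12 libraries were S100b (r = 0.97), Dagla (0.966), Caap1 (0.961), Cd200 (0.957) and Azgp1 (0.953). S100b, a calcium-binding protein of chondrocytes and Schwann cells, had a mean of 42.8 CPM. They were the highest of all other genes tested and are given as a description. Across whole libraries, group differences included, Caap1 was at -0.199, so its likeness lay only within groups. Among the lists, the median r with the members was 0.82 for the cartilage collagens (0.74 to 0.89), 0.67 for adipocyte markers, 0.63 for elastic fibre genes, 0.51 for the wider chondrocyte list, 0.49 for dermal fibroblast and for Schwann cell markers, 0.36 for tendon markers, 0.30 for the enzymes, 0.26 for skeletal muscle, -0.15 for hair follicle and -0.16 for neutrophil markers.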

How the data were processed

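RNA of 12 mouse ears was measured by RNA-Seq from total RNA libraries made with a stranded kit. Alignment by the authors was to mm10 (STAR 2.5.2b), followed by counting per Ensembl gene (featureCounts of Subread 1.5.1), and the raw counts were deposited with a column for each mouse. The annotation release and the strand setting are not given in the sources used here. Gene symbols came from a column of the tables of comparisons that the authors deposited, whose fold changes and p-values from DESeq2 were not used. Positions came from GENCODE vM21 (GRCm38) and promoters from RefSeq (GRCm38.p6).

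Counts were analysed in R 4.3.3 with edgeR 4.0.16 and limma 3.58.1. Genes were kept by filterByExpr (minimum count 10), with TMM scaling and quasi-likelihood tests from a fit of 4 group means to all 12 libraries (common biological coefficient of variation 14.2%). Calls required an adjusted p below 0.05 (Benjamini-Hochberg over all genes tested) together with a log2 fold change beyond 1, thresholds taken from the study and applied here in both directions, and interactions the former only. The study's test, DESeq2 (here 1.42.0), was an alternative. Others were scaling by DESeq2 size factors or library size only, no filter or a minimum of 10 counts in every library, a fit of the 2 groups alone, no fold required, a replicate block, and leaving out each library. Log2 CPM for correlations used a prior count of 2. Intervals are of 95%, and the floor of 3 counts covers counting error only. The procedure was tested on simulated data.

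The members and lists were chosen with earlier results of these data known. The genes named are the members, in each list up to 4 genes with the largest change among those called in a comparison, and the 5 genes most like the members. Outside this rule, Col2a1, Adamts15, Timp2, Htra1, Msx2, Lhx2, Ly6g and the genes given as exceptions were named after their values were seen. Replicate numbers were not taken to pair the libraries.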

Additional observations from a re-analysis of the deposited data

Results flagged for a closer look

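Of the cartilage genes, Chad and Sox9 had an adjusted p below 0.05 for the interaction term of the fit. This term compares the effect of IL-17A in ears with and without IL-36γ. The interaction was -1.47 (SE 0.28) on the log2 scale for Chad, where IL-17A gave 0.47 in the absence of IL-36γ and -1.01 in its presence. It was -0.73 (SE 0.14) for Sox9, where the corresponding values were 0.51 and -0.22. The genes had been chosen with group differences known, so both are descriptions.

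Adamts15, which cuts aggrecan, had an interaction of -0.58 (SE 0.11, edgeR adjusted p = 0.0492). It was at 26.1 ± 0.188 CPM in PBS, 39 ± 3.08 CPM with IL-17A, 44.9 ± 3.83 CPM with IL-36γ and 44.9 ± 2.45 CPM with the combination. The adjusted p of its interaction ran from 4.87e-05 to 0.149 over the alternatives and was above 0.05 in each fit that left out a library other than PBS replicate 1.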

How the results depend on the processing

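No called result reversed its direction. Of the values of single genes under alternatives, 1732 kept their side of the threshold or moved by less than the spread between mice, 39 lost their call and 18 moved. All 9 members stayed below PBS after IL-17A + IL-36γ under all 20 alternatives, whereas after IL-17A alone Acan changed sign in 9 of them, Matn3 in 5, Comp in 3, Hapln1 in 1 and Cnmd in 1, and after IL-36γ alone Chad in 1, without IL-36γ replicate 2. Scaling by library size only moved the median of all genes from 0.04 to -0.13 for IL-17A, from -0.02 to -0.16 for IL-36γ, from -0.03 to -0.17 for the combination and from -0.07 to 0.11 for the interaction. The causes of the changes below were not tested.

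With 1 library left out at a time, the members lowered numbered 0 to 1 after IL-36γ, 5 to 7 after the combination, 5 to 8 against IL-17A, 0 to 2 against IL-36γ and 0 to 3 in the interaction, and 0 to 0 were raised after IL-17A. The collagens lowered numbered 0 to 0 after IL-17A, 2 to 4 after IL-36γ, 6 to 7 after the combination and 5 to 7 against IL-17A, and 0 to 0 in the interaction. Of the wider chondrocyte list, 0 to 0 were lowered and 1 to 2 raised after IL-17A, 0 to 2 lowered and 1 to 2 raised after IL-36γ, 9 to 10 lowered and 1 to 2 raised after the combination, 7 to 9 lowered and 1 raised against IL-17A, 0 to 1 lowered against IL-36γ, and 0 to 1 lowered and 0 raised in the interaction. Of the enzymes, 0 to 1 were raised after IL-17A, 1 raised after IL-36γ, 2 raised after the combination, 0 to 1 lowered and 1 to 2 raised against IL-17A, and 0 to 4 lowered in the interaction. Of the elastic fibre genes, 2 to 3 were lowered after the combination and 2 to 4 against IL-17A. The median correlation of members, 0.56, ran from 0.31 to 0.58.

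DESeq2 size factors gave 0 members and 0 enzymes in the interaction and 0 enzymes lowered against IL-17A. Library size only gave the same 3 counts, 4 collagens lowered after IL-36γ and 1 chondrocyte gene raised after the combination. No filter gave 3 members, 2 chondrocyte genes, 3 enzymes and 1 elastic fibre gene in the interaction, and 1 member lowered against IL-36γ. At least 10 counts in every library gave 1 member and 0 enzymes in the interaction. DESeq2 gave 4 members, 1 collagen, 5 chondrocyte genes lowered and 1 raised, 5 enzymes and 3 elastic fibre genes in the interaction, 1 chondrocyte gene lowered against IL-36γ and 0 enzymes lowered against IL-17A. Only the 2 groups compared gave 0 chondrocyte genes and 0 enzymes raised after IL-17A, and 1 chondrocyte gene raised after IL-36γ.

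Without the 3 libraries low in muscle genes, chosen after seeing the data, 0 members and 0 enzymes had an interaction, 4 collagens were lowered after IL-36γ, 2 chondrocyte genes were lowered and 1 raised after IL-36γ, 1 was raised after the combination and 3 were lowered against IL-17A. There were then 1 enzyme raised after the combination, 0 enzymes lowered against IL-17A and 1 elastic fibre gene lowered against IL-17A.

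With no fold required, 1 member was raised after IL-17A and 2 were lowered after IL-36γ, 1 collagen was lowered after IL-17A and 6 after IL-36γ. Chondrocyte genes lowered were then 1, 10 and 16 after IL-17A, IL-36γ and the combination, with 14 lowered and 2 raised against IL-17A. Enzymes raised were 2 after IL-17A, 2 after IL-36γ and 2 against IL-17A, and those lowered 1 after IL-36γ, 3 after the combination and 5 against IL-17A. Elastic fibre genes raised were 2, 2 and 3 after IL-17A, IL-36γ and the combination and 1 against IL-17A, and those lowered 3 after IL-36γ, 5 after the combination and 7 against IL-17A.

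The labels tie no number to a shared litter or day, and the deviations of 18 pairs with the same number correlated at -0.20 to 0.35, with 9 and not all above 0.1, so the numbers were not taken as pairs. As a hint from the data, 8 of 12 libraries correlated best with their own number. With the replicate number as a block, members lowered numbered 1 after IL-36γ, 6 after the combination, 7 against IL-17A, 0 against IL-36γ and 3 in the interaction, and 0 were raised after IL-17A, while the interaction was found for 2 chondrocyte genes and 2 enzymes. The block moved no other count by over 1.5 times. Depth limits Matn1, at 2 counts or fewer, and the 3 mice of each group limit every contrast.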
